A study of Bos taurus with 6 samples.

Results

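The circular RNAs (circRNAs) of STT3B and ADRA1A were described in subcutaneous fat of Qinchuan cattle, with the reads that cross their back-splice junction set against the other reads listed for the same stretch of the host gene. A circRNA is an RNA loop closed by back-splicing, the joining of the end of an exon to a start that precedes it, and reads across this joint are its junction reads. Every circRNA whose deposited gene name was STT3B or ADRA1A was taken, which gave 10 of the 14274 circRNAs in the tables, 7 of STT3B and 3 of ADRA1A. Each of the 10 was annotated to 1 gene. Of the 6 libraries, 3 were labelled calf (6 months) and 3 adult (24 months); the labels name no treatment and no genotype, and both ages were sampled at a slaughterhouse. Both genes were chosen for how their circle and non-junction reads stood at the 2 ages in these same libraries, so their age contrast is given as a description: whether a member passed a test is stated, with no p-value, and nothing is read from it.

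STT3B codes for a catalytic subunit of oligosaccharyltransferase, the enzyme of the endoplasmic reticulum that moves a preassembled sugar tree onto asparagines of new proteins. The complex built on STT3B can act on sites that the sister complex built on STT3A has passed over. ADRA1A codes for the alpha-1A adrenergic receptor, which binds noradrenaline and adrenaline, couples to Gq proteins and raises calcium through phospholipase C. It is best known for the contraction of smooth muscle in vessels, while the release of fatty acids from fat cells is driven mainly by the beta receptors through cyclic AMP.

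The libraries held 35616 to 47298 junction reads, so 1 read was a large step for circles of this abundance: a floor of 3 reads corresponded to 63.4 to 84.2 CPM (counts scaled to the total of junction reads in a library). The tables hold 0 counts of 1, and the smallest nonzero count is 2. Non-junction reads are listed for a library only where it had junction reads of that circRNA, and no source used here defines them. The labels' protocols describe RNase R, which digests linear RNA, but do not say whether these 6 libraries were treated, so non-junction reads are not taken here as a direct measure of linear transcript. Over the 1192 circRNAs read in all 6 libraries, junction reads made up 4.96 ± 0.686% of junction plus non-junction reads in calves and 5.25 ± 1.29% in adults (SD, n = 3 per age). The ranges of the ages overlapped in this series-wide share. Circles of the same gene can share non-junction reads, so it can count some reads more than once. For the same reason, counts of circRNAs by their non-junction reads or ratio are not all of independent values. In bulk tissue, fewer cells of a type and less RNA per cell cannot be told apart.

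The leading STT3B circle, novel_circ_0006844, lies on the plus strand of chromosome 22 from 6139597 to 6143510 (positions as deposited; no source used here names the build). It held 144 of the 157 STT3B junction reads (91.7%). Its listed content was intron 2 and exon 3, the latter 288 bases long, with a listed length of 3804 of 3913 bases. The missing 109 bases lie between the start of the circle and the start of intron 2. In the whole annotation table, the shortest exon among 15519 listed and the shortest intron among 31138 listed were both 150 bases long, so shorter pieces of a circle have no entry and the listed length leaves them out. The start of novel_circ_0006844 was shared by 2 STT3B circles, itself included, and so was its end, while 4 of the 7 held at least part of exon 3.

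The 6 other STT3B circles had 2 or 3 junction reads each, all in 1 calf library apiece, and 0 in every adult. They ran from a 288-base circle of exon 3 alone (novel_circ_0006846, 3 reads in calf 3) to a 19609-base circle that reached exon 11 (novel_circ_0006849, 2 reads in calf 2). One of them, novel_circ_0006850, listed exons 11, 12 and 13 and ended at 6177526, so the 7 circles together covered 37929 bases of the gene. Read in calves only were 8 of the 10 members and 30.4% of all 14274 circRNAs. Of all circRNAs in the tables, 59.2% were likewise read in 1 library only. Of these, 44.4% were read in a calf library. These counts are at or under the floor, so no fold is given for them.

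The 3 ADRA1A circles lie on the minus strand of chromosome 8 and shared 1 end, 75258642, which is the upstream end of exon 2 of the gene. All 3 listed the whole of this exon (75257160 to 75258642, 1482 bases) and nothing else. Their other ends, at 75253002 for novel_circ_0013071, 75256312 for novel_circ_0013072 and 75256802 for novel_circ_0013073, lay 4158, 848 and 358 bases beyond the downstream end of the exon. No exon or intron was listed for those stretches, so the deposited spliced length of 1482 bases covers exon 2 alone. Of 62 ADRA1A junction reads, novel_circ_0013071 held 32, novel_circ_0013073 held 28 and novel_circ_0013072 held 2.

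**Figure D1:**
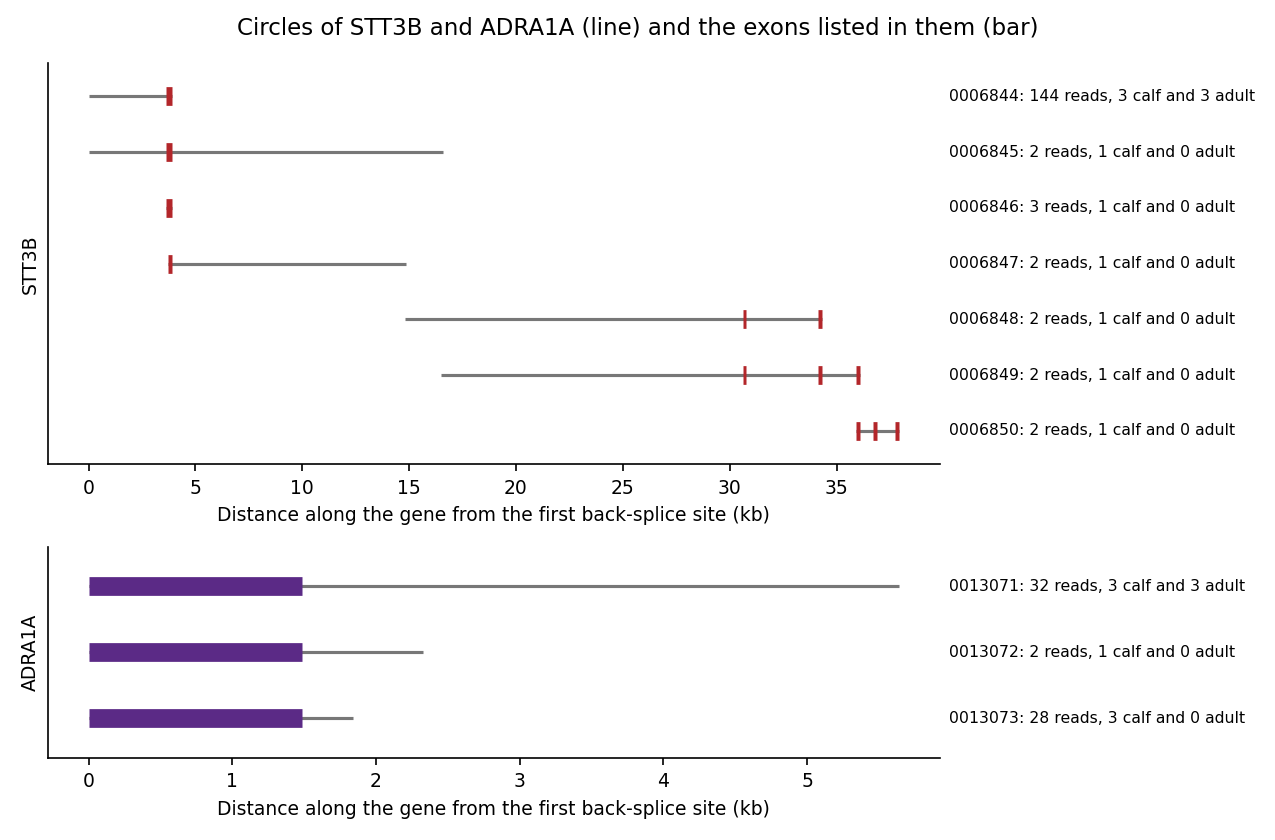
Each line is 1 circle drawn to scale along its gene in the direction of transcription, in kilobases from the first back-splice site, and each bar is an exon listed in it; the text at the right gives its junction reads and the number of calf and adult libraries that read it. The 3 ADRA1A circles start together and differ in how far they run past exon 2, and the 7 circles with 2 or 3 reads were each read in 1 calf library.

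The junction reads of the leading STT3B circle hardly moved between libraries. It had 25, 23 and 23 junction reads in calves 1, 2 and 3 and 25, 23 and 25 in adults 1, 2 and 3. Scaled to CPM, the calves averaged 633 ± 46.6 and the adults 590 ± 91.5 (SD over 3 libraries each). The ranges overlapped, with the lowest value in adult 2 (486 CPM), the library with most junction reads. Its log2 change, adult minus calf, was -0.02 ± 0.29 (SE, edgeR). It was the only member among the 663 circRNAs that passed the filter on low counts, and it was not among the 126 that passed the test (19.0% of those tested).

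The non-junction reads of the same stretch of STT3B were several times lower in adults. They numbered 1415, 1517 and 917 in calves 1, 2 and 3 and 184, 264 and 425 in adults 1, 2 and 3. Every adult library was below every calf library, the highest adult being adult 3 and the lowest calf being calf 3. They were scaled to CPM by TMM over 1070 circRNAs that were read in all libraries and averaged 10 or more such reads. The calves then averaged 2747 ± 513 CPM and the adults 589 ± 185 CPM (SD over 3 libraries each). The log2 change was -2.22 ± 0.29 (SE), a 4.67-fold lower level in adults. In calf 3, where the circle of exon 3 alone was also read, 480 non-junction reads were listed for that circle, or 1.67 reads per listed base, against 0.241 per listed base over intron 2 and exon 3 together. By difference, 437 of the 917 reads of calf 3 would then belong to intron 2. The circle of exon 3 alone was read in no adult, so whether intron or exon reads were lower there cannot be told.

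Of the 3 ADRA1A circles, only novel_circ_0013071 was read in all 6 libraries, with far fewer junction reads. It had 2, 8 and 6 junction reads in calves 1, 2 and 3 and 4, 9 and 3 in adults 1, 2 and 3. The mean was 141 ± 77.8 CPM against 124 ± 59.7 CPM (SD over 3 libraries each). Summed over all 3 circles, ADRA1A junction reads were lower in adults (408 ± 41.4 CPM in calves), as given below. For novel_circ_0013071 alone the ages overlapped over nearly their whole range, calf 1 lay under the floor and adult 3 lay on it. Without a filter, the log2 change in its junction reads was -0.11 ± 0.84 (SE), an error far larger than the change.

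The non-junction reads listed for the ADRA1A circle numbered 490, 443 and 255 in calves 1, 2 and 3 and 53, 54 and 51 in adults 1, 2 and 3. The adults were close to each other and all lay below the calves, of which calf 3 was the lowest. In scaled reads the calves averaged 838 ± 167 CPM and the adults 115 ± 46.5 CPM (SD over 3 libraries each). The log2 change was -2.89 ± 0.33 (SE), a 7.44-fold lower level in adults. For novel_circ_0013073 the table lists the same 490, 443 and 255 non-junction reads in the calves, so these circles share 1 set of reads and are not separate measurements.

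Both members with complete values fell in the edgeR test of non-junction reads, which called 15 of 1070 circRNAs lower in adults (1.4%); as the members were chosen on this contrast, nothing is read from that count. Scaled non-junction reads were lower in every adult than in every calf for 11.6% of the 1070. The ADRA1A change was the lowest of the 1070 and the STT3B change the fifth lowest. Both calls were lost without adult 2, where the test called 0 of 1065 circRNAs (124 at an unadjusted p under 0.05), and the log2 changes there were -2.70 for ADRA1A and -2.01 for STT3B.

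**Figure D2:**
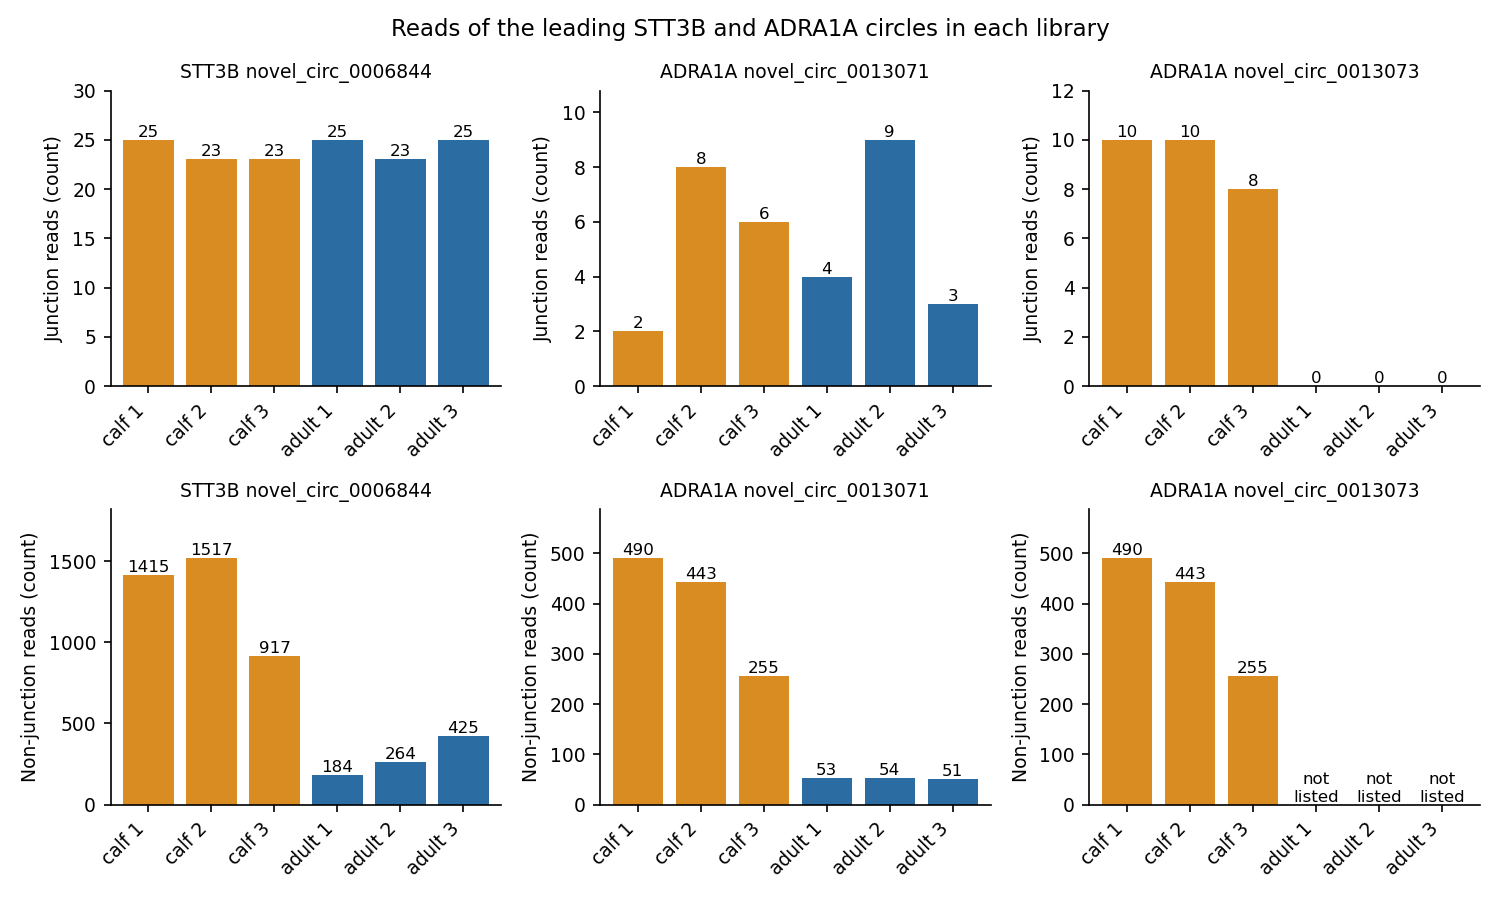
Bars give the junction reads (upper row) and non-junction reads (lower row) as counts in each calf (orange) and adult (blue) library for the 3 circles of STT3B and ADRA1A with most junction reads. The STT3B junction reads stay between 23 and 25 in all libraries, the non-junction reads of both genes are lower in each adult, and novel_circ_0013073 has 0 junction reads in adults, where its non-junction reads are not listed.

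Set against each other, the reads gave a larger share of STT3B circle in adults. Junction reads were 1.74% of junction plus non-junction reads in calf 1 (95% exact binomial interval 1.13 to 2.55%), 1.49% in calf 2 (0.949 to 2.23%) and 2.45% in calf 3 (1.56 to 3.65%). They were 12.0% in adult 1 (7.89 to 17.1%), 8.01% in adult 2 (5.15 to 11.8%) and 5.56% in adult 3 (3.63 to 8.09%). The lowest adult interval, that of adult 3, began just below the upper end of the calf 3 interval and above those of calves 1 and 2. The mean was 1.89 ± 0.495% in calves and 8.51 ± 3.23% in adults (SD, n = 3 per age). These intervals, and the floors, reflect counting error within a library alone and hold no spread between samples. PCR copies of a molecule were not marked, so the counting error itself may be larger than they show.

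For ADRA1A novel_circ_0013071 the share was 0.407% in calf 1 (0.0493 to 1.46%), 1.77% in calf 2 (0.769 to 3.47%) and 2.30% in calf 3 (0.848 to 4.94%). It was 7.02% in adult 1 (1.95 to 17.0%), 14.3% in adult 2 (6.75 to 25.4%) and 5.56% in adult 3 (1.16 to 15.4%). The adult shares were all higher, but with 3 to 9 junction reads the interval of adult 1 overlapped those of calves 2 and 3, and that of adult 3 overlapped all 3 calf intervals. The mean was 1.49 ± 0.977% in calves and 8.95 ± 4.68% in adults (SD, n = 3 per age).

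These ADRA1A shares rest on 1 of 3 circles listed with the same non-junction reads, and the others were read in calves only. With the junction reads of all 3 circles summed, an alternative chosen after the data were seen, the share was 2.78% in calf 1 (1.53 to 4.62%), 3.90% in calf 2 (2.33 to 6.10%) and 5.2% in calf 3 (2.87 to 8.58%). The adult shares did not change, so adult 3 (5.56%) stood close to calf 3 and the intervals of adults 1 and 3 overlapped all 3 calf intervals. The calf mean was then 3.96 ± 1.21% (SD, n = 3), against 8.95 ± 4.68% in adults.

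**Figure D3:**
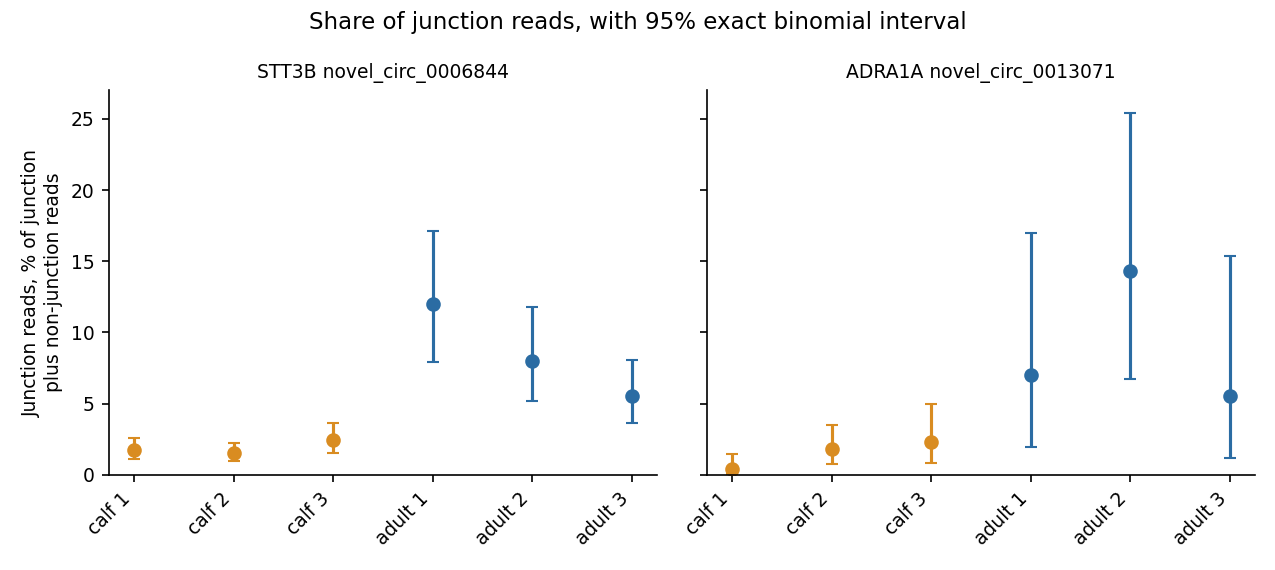
Points give junction reads as a percentage of junction plus non-junction reads in each calf (orange) and adult (blue) library, with the 95% exact binomial interval as bars. The STT3B circle lies at 1.49 to 2.45% in calves and 5.56 to 12.0% in adults, and ADRA1A novel_circ_0013071 alone at 0.407 to 2.30% and 5.56 to 14.3%, with wider intervals.

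With the median log2 ratio of junction to non-junction reads subtracted in each library, STT3B stood at -1.77 ± 0.394 in calves and 0.37 ± 0.335 in adults (log2 units, SD, n = 3 per age). Relative to a typical circRNA of the same library, the circle was scarce against its non-junction reads in calves and close to typical in adults. ADRA1A novel_circ_0013071 stood at -2.27 ± 0.916 in calves and 0.51 ± 0.928 in adults, the same order with a larger spread. The log2 changes in ratio were 2.13 ± 0.47 for STT3B and 2.79 ± 0.58 for ADRA1A novel_circ_0013071 (SE, limma), the fourth highest and the highest of 1070. With all 3 ADRA1A circles summed, the ADRA1A change was 1.18 ± 0.53 (SE, limma), 2.27-fold, and stood 52nd from the highest. The ratio was higher in every adult than in every calf for 6.64% of the 1070, and for both of these.

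Neither circle passed the limma test of the ratio, which called 1 of 1070 circRNAs (0.0935%; 148 at an unadjusted p under 0.05). That one, named after its value was seen, is annotated to CYP21A2, a steroid hydroxylase gene. Of 14 alternatives to this test, 11 called neither circle and 3 called at least 1. The edgeR model of age by read kind called both among 30 of 1070 (2.8%), limma without calf 3 called both among 28 of 1073 (2.61%), and limma with a pseudocount of 1 called ADRA1A as 1 of 2 (0.187%). As the ratio is the measure that singled these genes out, these counts are given as a description.

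**Figure D4:**
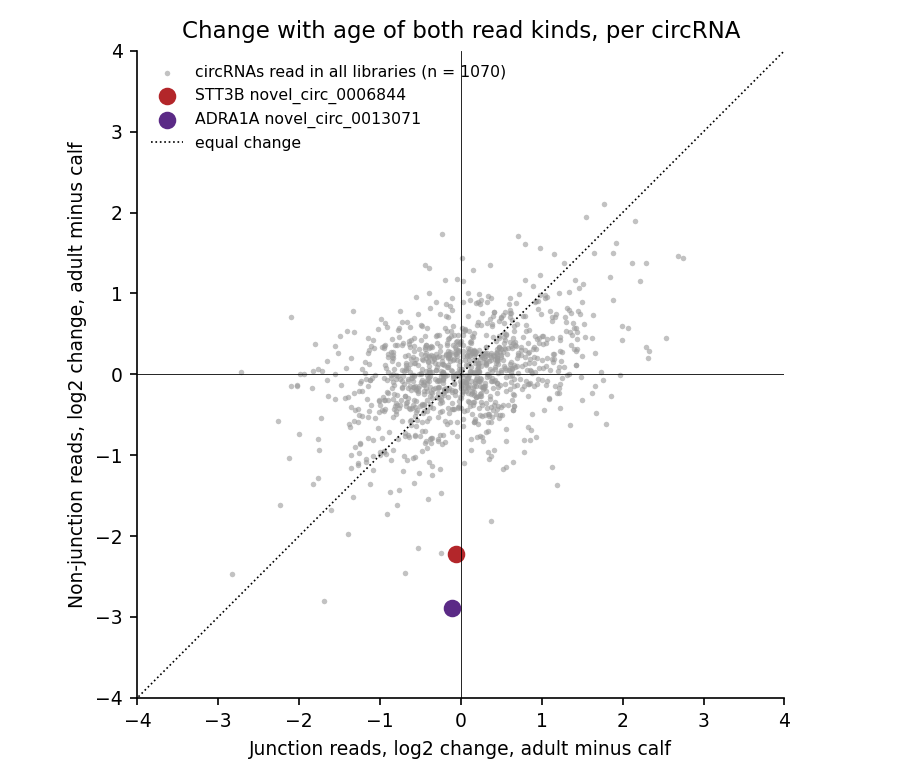
Each point is 1 of 1070 circRNAs, with the log2 change (adult minus calf) of its junction reads on the x axis, from the fit without a filter, and that of its non-junction reads on the y axis; the dotted line marks equal change. STT3B novel_circ_0006844 and ADRA1A novel_circ_0013071 lie near 0 on the x axis and at -2.22 and -2.89 on the y axis.

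Of all 663 circRNAs tested for junction reads, 69 passed as lower in adults. Among the 15 circRNAs with lower non-junction reads, 9 could be tested for junction reads, and 3 of those fell there too. These were the circles of PANK3, a pantothenate kinase gene of coenzyme A synthesis (log2 change -2.81 ± 0.36 in non-junction and -1.65 ± 0.38 in junction reads, SE), CTNNAL1, an alpha-catenin-like gene (-2.48 ± 0.41 and -2.80 ± 0.39), and BOLA-DMA, a gene of peptide loading on class II molecules (-1.98 ± 0.35 and -1.37 ± 0.26). These 3 were named after their values were seen. Their log2 changes in ratio were 1.02, -0.45 and 0.44, and a fall in both kinds of read, by which they were picked, keeps this change small. Of the 15, 12 had a log2 change in ratio above 0, among them circles of DECR1 (1.87), a gene of fatty acid oxidation, CDON (1.67), a cell surface gene, and ADIPOR2 (1.09), an adiponectin receptor gene. The median over all 1070 was -0.09. Non-junction reads are the divisor of the ratio, so their fall, by which the 15 were picked, itself raises it. Nothing is read from the 12. The ADIPOR2 circle could be tested for junction reads and did not pass (log2 change -0.38). The difference between any of these circles and the STT3B circle (2.13) was not tested.

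The second abundant ADRA1A circle, novel_circ_0013073, was read in calves only. It had 10, 10 and 8 junction reads in calves 1, 2 and 3 and 0 in adults 1, 2 and 3, or 249 ± 22.3 CPM in calves (SD, n = 3). Against the floor of 3 reads per adult library it was at least 3.43-fold lower in adults. The authors' deposited table of circRNAs lower in adults lists it with scaled means of 9.40 in calves and 0 in adults, and with a log2 fold change of -5.72, which against a mean of 0 is no measure of size. Their tables list 81 of the 14274 circRNAs in either direction (0.567%), of which it was the only one of the 10. It did not pass the filter on low counts here; without a filter it was the 1 member of the 10 that passed the edgeR test, which then called 1.42% of 14274.

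Against the non-junction reads, a lower share of this circle in adults was not detectable at this depth in any 1 library. Its junction reads were 2.0% of junction plus non-junction reads in calf 1 (95% exact binomial interval 0.963 to 3.65%), 2.21% in calf 2 (1.06 to 4.02%) and 3.04% in calf 3 (1.32 to 5.91%). The 53, 54 and 51 non-junction reads listed for novel_circ_0013071 in adults 1, 2 and 3 were taken, as an assumption, for this circle too. A floor of 3 reads is then 5.66%, 5.56% and 5.88% of them. Set against junction plus non-junction reads, as the calf shares are, these limits are slightly lower but still above each calf share.

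The 3 ADRA1A circles summed to 14, 18 and 14 junction reads in calves 1, 2 and 3 and 4, 9 and 3 in adults 1, 2 and 3, with no overlap between ages. The mean was 408 ± 41.4 CPM for calves against 124 ± 59.7 CPM for adults (SD over 3 libraries each), and the log2 change was -1.60 ± 0.53 (SE). The 7 STT3B circles summed to 29, 27 and 28 junction reads in calves and 25, 23 and 25 in adults, or 749 ± 58.1 and 590 ± 91.5 CPM (log2 change -0.28 ± 0.29 SE). The STT3B sum did not overlap either, at 682 to 786 CPM in calves and 486 to 659 CPM in adults. Sums were lower in every adult than in every calf for 18.4% of the 719 host genes tested. Neither sum was among the 89 of 719 host genes that passed the edgeR test on host sums (12.4%).

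Smooth muscle and pericyte markers, of cells known to express ADRA1A, had more circle reads in each adult than in each calf. The calf sums of 2 to 4 reads lay about the floor of 3 reads, and 0 of these genes could be tested. The share of all host genes with more reads in each adult was not counted, so nothing is read from this order. Circles of 7 of the 12 marker genes were read, with 2, 4 and 2 junction reads in calves 1, 2 and 3 and 14, 34 and 19 in adults 1, 2 and 3 in all (53.7 to 101 CPM in calves and 369 to 719 CPM in adults). MYLK, TAGLN and MYH11, genes of the contractile apparatus, held most of them, and the defining marker ACTA2 had 2 reads, in calf 2. Skeletal muscle markers, of which 5 of 19 were read, had 297 of their 304 reads in adult 2, the library with the highest ADRA1A ratio, and 0 to 3 elsewhere. Without adult 2 the ADRA1A log2 change in ratio was 2.27 and that of STT3B 2.03.

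Adipocyte markers, with circles from 7 of 17 genes, summed to 3574 to 4633 CPM in calves and 2537 to 3373 CPM in adults, and FABP4, LEP and PLIN1 were at 0. Of 3 adipocyte markers tested, 2 fell, PPARG, the master regulator of fat cell formation (1563 ± 477 to 655 ± 183 CPM), and ACACA, which starts fatty acid synthesis (936 ± 251 to 82.1 ± 41.5 CPM). The PPARG call was lost without calf 3 and without each adult in turn (edgeR adjusted p of 0.0551 to 0.0905), and the ACACA call with limma-voom (adjusted p = 0.0725). The fatty acid transporter CD36 averaged 1250 ± 330 CPM for calves against 2202 ± 531 CPM for adults and did not pass (edgeR adjusted p = 0.0535), though it did without calf 3 (0.0379) and without adult 2 (0.0441). Immune markers, from 3 of 12 genes, stood at 53.7 to 505 CPM in calves and 1212 to 11509 CPM in adults, nearly all from ADGRE1. Adult 3 held 457 of the 600 ADGRE1 reads, against 44 in adult 1 and 72 in adult 2. It was the 1 immune gene tested and passed (log2 change 4.30 ± 0.87 SE, edgeR adjusted p = 0.00582). Endothelial markers, from 9 of 11 genes, stood at 1292 to 1478 CPM and 1776 to 2114 CPM, and 0 of 2 tested passed. They did not move together. Adult means were lower for FLT1, the most read (541 ± 55.7 to 378 ± 44.1 CPM), KDR, TEK and EMCN, and higher for ENG, PECAM1, ERG, PTPRB and VWF. Fibroblast and matrix markers, from 4 of 10, stood at 0 to 168 CPM and 52.7 to 300.2 CPM. Of nerve markers 1 of 7 was read, SOX10 in calf 2, and of epithelial markers 0 of 7. The part of these differences in the STT3B and ADRA1A values was not tested.

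Other subunits of oligosaccharyltransferase gave almost no circles. Of 13 symbols searched, STT3A had 2 junction reads each in adults 1 and 3 and TUSC3, a subunit of the STT3B complex, had 4 in calf 3, while RPN1, RPN2, DDOST, DAD1 and MAGT1 had none. Of 49 genes that build or trim N-glycans, 18 gave circles, 3 could be tested as host sums and 0 passed (edgeR; median log2 change 0.06, against 0.01 over all 719 host genes). MGAT4A, a branching enzyme of the Golgi, averaged 766 ± 267 CPM for calves against 692 ± 75.9 CPM for adults (SD over 3 libraries each). MAN2A1, a Golgi mannosidase, stood at 601 ± 195 and 671 ± 73.4 CPM, and UGGT1, which senses misfolded glycoproteins, at 293 ± 104 and 289 ± 79.3 CPM. The 7 circles of this list with complete non-junction reads had log2 changes of -0.76 (NGLY1) to 0.30 (MGAT4A) there, and 0 passed. Of 43 genes of protein quality control in the endoplasmic reticulum, 13 gave circles with 140 reads in all, and 0 could be tested.

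ADRA1A was the only adrenergic receptor gene of 9 with circles; the beta receptor genes had none. Of 47 genes of Gq and calcium signalling, 21 gave circles, 6 could be tested and 0 passed (median log2 change 0.43). PLCB4, a phospholipase C that Gq activates, averaged 1234 ± 220.2 CPM for calves against 669 ± 192 CPM for adults (SD over 3 libraries each), with a log2 change of -0.82 ± 0.29 (SE). ITPR2, a calcium channel opened by the product of phospholipase C, stood at 1019 ± 148 and 1354 ± 453 CPM, and PRKCE, a protein kinase C, at 662 ± 160 and 791 ± 85.2 CPM. The 10 circles of this list with complete non-junction reads had log2 changes of -1.06 (PLCB4) to 0.77 (ITPR1) in them, and 0 passed.

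Of 42 genes of cyclic AMP and lipolysis signalling, 21 gave circles and 2 could be tested, 1 higher and 1 lower in adults. ADCY9, an adenylyl cyclase that makes cyclic AMP, rose by 1.21 ± 0.27 on the log2 scale (SE, edgeR adjusted p = 0.0101), with a calf mean of 799 ± 234 CPM and an adult mean of 1761 ± 262 CPM (SD). The call was lost without calf 1 (edgeR adjusted p = 0.0651) and without calf 2 (0.0757). PDE3B, the phosphodiesterase through which insulin restrains lipolysis, fell by 1.77 ± 0.41 on the log2 scale (SE, edgeR adjusted p = 0.0129), with a calf mean of 998 ± 247 CPM and an adult mean of 270.5 ± 149 CPM (SD). That call was lost without calf 2 (edgeR adjusted p = 0.0693). A PDE3B circle was also among the 15 with lower non-junction reads (novel_circ_0002944, log2 change -1.61 ± 0.26 SE, edgeR adjusted p = 0.0201). Its ratio changed by 0.90 ± 0.48 on the log2 scale, against 2.79 ± 0.58 for ADRA1A novel_circ_0013071 and 1.18 ± 0.53 for the 3 ADRA1A circles summed.

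In the authors' deposited KEGG table, which tests host genes of their listed circRNAs, ADRA1A is 1 of 5 genes under vascular smooth muscle contraction, out of 119 in that term (corrected p = 0.0493). It is also in 6 other terms there, calcium signalling and adrenergic signalling in cardiomyocytes among them, with corrected values of 0.616 to 0.865 in the authors' deposited table. No STT3B circle is among the circRNAs that the authors listed, so STT3B could not appear in the terms of that table.

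Profiles most like the STT3B ratio over the 6 libraries, by the root mean square difference of log2 ratios set to mean 0, were those of circles of CDC10 (0.35), FOXP1 (0.38) and RDX (0.39), against a median of 1.26 over 1069 others. Their ratios changed by 1.67 ± 0.47, 1.65 ± 0.53 and 1.56 ± 0.46 on the log2 scale (SE). In their non-junction reads the log2 changes were small, -0.08, -0.32 and 0.03, where STT3B was at -2.22. For ADRA1A novel_circ_0013071 the nearest were circles of RERE (0.66), NTRK2 (0.68) and EHBP1 (0.76), against a median of 1.73, with non-junction log2 changes of -0.62, -1.08 and -1.15. STT3B and ADRA1A differed from each other by 0.89.

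**Figure D5:**
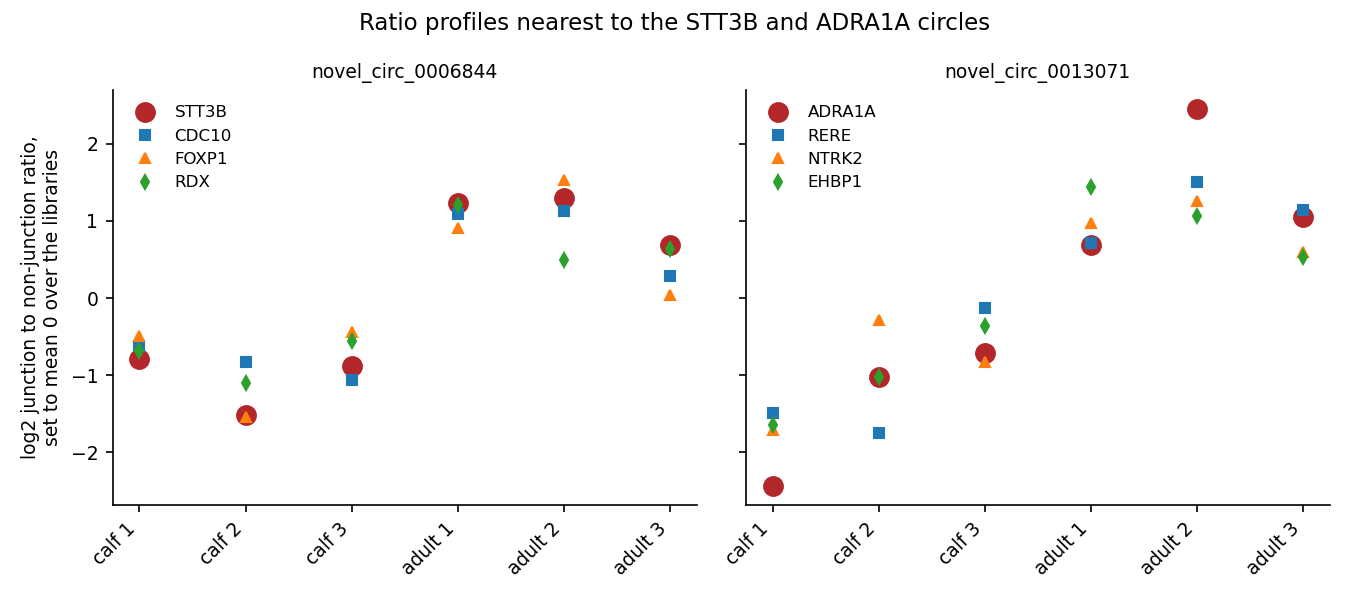
Points give the log2 ratio of junction to non-junction reads in each library, set to mean 0 over the 6 libraries, for the STT3B (left) and ADRA1A (right) circles and the 3 circles with the nearest profile. All of these lie below 0 in calves and above 0 in adults, and ADRA1A is highest in adult 2 and lowest in calf 1.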

How the data were processed

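Total RNA of subcutaneous fat was freed of ribosomal RNA, an RNase R step is described, and libraries were read in pairs, per the labels' protocols. Per the submitters' processing notes, TopHat2 2.0.14, TopHat, Cufflinks and Trim Galore were used, with no role given; no source used here names the circRNA caller or the genome build. Deposited were the authors' junction read counts per circRNA and library and, headed TPM, CPM values equal to counts scaled to the junction reads of a library, with no length term. Per the file headers, the authors' comparison of ages holds scaled signal means, log2 fold changes and p-values. The deposited annotation gives positions, listed exons and introns, and non-junction reads.

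Junction counts, non-junction reads (circRNAs read in all 6 libraries, mean of at least 10) and junction counts summed per host gene were tested between ages with edgeR 4.0.16 (quasi-likelihood, TMM, filterByExpr for junction counts) in R 4.3.3. Log2 ratios with a pseudocount of 0.5, centred per library, were tested with limma 3.58.1 (trend). P-values were adjusted over all features by Benjamini-Hochberg at 0.05. DESeq2 1.42.0, limma-voom, other scalings and filters, a replicate block and leaving out each library were alternatives. These tests were tried on simulated data. Shares carry Clopper-Pearson intervals. Nothing says that libraries came from separate animals, so p-values measure the spread between these samples. The members, gene lists and rules for naming were chosen with earlier results of these data known. Members read in all 6 libraries, or the 3 with most reads per gene, were given in full; of each pathway list, genes that passed and the 3 tested ones with most reads; and the 3 nearest ratio profiles. Gene names are those of the deposited annotation. No circle sequence is printed.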

Additional observations from a re-analysis of the deposited data

How the results depend on the processing

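The number of circRNAs that passed for junction reads (126) was 202 without a filter on low counts and 71 to 138 without 1 library. For non-junction reads (24 in both directions) it was 0 to 77 without 1 library, with 0 of 1065 without adult 2 (124 at an unadjusted p under 0.05, edgeR), 6 without calf 1 or calf 2, 77 without calf 3, 10 without adult 1 and 12 without adult 3. For the ratio (1) it was 2 with a pseudocount of 1, 0 without centring, 0 without a minimum of non-junction reads (100 and 155 at an unadjusted p under 0.05, limma), 30 with edgeR's model of age by read kind and 0 to 28 without 1 library, the 28 being without calf 3. Host sums (89) gave 132 without a filter on low counts and 55 to 123 without 1 library. With the replicate number as a block, junction reads gave 56 calls and the ratio 0 (137 at an unadjusted p under 0.05, limma). Same-numbered libraries did not deviate together in junction reads (r = -0.05, 0.08 and 0.02 across circRNAs for numbers 1 to 3) or in ratio (r = -0.13, -0.01 and -0.09). These r values use deviations from the mean of 3 libraries and are not independent, so they do not settle whether libraries were paired. The cause of these shifts was not tested. Over all alternatives the log2 change in non-junction reads ran from -2.47 to -2.01 for STT3B and from -3.24 to -2.70 for ADRA1A, that in ratio from 1.91 to 2.33 for STT3B and from 1.18 to 3.14 for ADRA1A, the 1.18 being with the junction reads of all 3 ADRA1A circles (2.79 for novel_circ_0013071 alone; chosen after seeing the data), and that in STT3B junction reads from -0.11 to 0.15. Depth limits the 9 members other than the leading STT3B circle, which had 2 to 10 junction reads in each library that read them.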
